A study of Mus musculus with 22 samples.

Results

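The genes described here encode core proteins of small nucleolar ribonucleoprotein particles (snoRNPs). They are the box C/D proteins Fbl, Nop56 and Nop58, the H/ACA proteins Dkc1, Nop10, Nhp2 and Gar1, and the snoRNP chaperone Nolc1. They were taken by symbol, and all 8 were found among the 24819 genes of both deposited tables and passed the filter on low values. Mouse embryonic stem cells of the line E14, kept on gelatin with leukemia inhibitory factor (LIF), were transfected with small interfering RNAs (siRNAs), and their RNA was sequenced 3 days later. The 22 libraries are of 6 kinds: siRpl14+siRpl11, siRpl14+siDux, siRpl14, siRpl11, siDux and siNT. Each single siRNA was given together with siNT, and the control received siNT with siNT, so every culture received siRNA. Set 1 holds 2 libraries each of siRpl14+siRpl11, siRpl14, siRpl11 and siNT. Set 2, in the same table, holds 1 each of siRpl14+siDux, siRpl14, siDux and siNT. Set 3, in the other table, holds 2 each of siRpl14+siDux, siRpl14, siDux and siNT and 1 each of siRpl14+siRpl11 and siRpl11. The labels do not spell out NT, and the split of sets 1 and 2 is read from the style of the titles alone.

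A snoRNP is a small guide RNA wrapped in a fixed set of proteins. Box C/D particles add methyl groups to the ribose of ribosomal RNA: Fbl (fibrillarin) is the methyltransferase, and Nop56 and Nop58 are related scaffold proteins. H/ACA particles convert uridine to pseudouridine: Dkc1 (dyskerin) is the catalytic subunit, held with Nop10, Nhp2 and Gar1, and the same proteins bind the RNA of telomerase. Nolc1, also called Nopp140, is a phosphoprotein of nucleoli and Cajal bodies that binds both classes. The siRNA targets Rpl14 and Rpl11 are genes for proteins of the large ribosomal subunit, whose RNA is among the substrates of these particles. Dux encodes a transcription factor of the early embryo.

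The bases just before the start of 4 of these genes are printed to set the member with the largest rise in set 1 (Nop58) and the one that lay below siNT there (Nop10) beside a pair that holds a shared motif (Gar1 and Nolc1). They are from RefSeq on GRCm38.p6, 5′ to 3′ on the strand of the gene, stop before the gene model, and have the letters CCGGAAG, or CTTCCGG where it lies on the other strand, in capitals. The table of promoters matched 7 of the 8 members, and the gene without an entry is Fbl. The coordinates are chr1:59684756-59684970 on the plus strand (215 bases) for Nop58, chr2:112261676-112261925 on the plus strand (250 bases) for Nop10, chr3:129831397-129831646 on the minus strand (250 bases) for Gar1 and chr19:46075597-46075846 on the plus strand (250 bases) for Nolc1.
Nop58: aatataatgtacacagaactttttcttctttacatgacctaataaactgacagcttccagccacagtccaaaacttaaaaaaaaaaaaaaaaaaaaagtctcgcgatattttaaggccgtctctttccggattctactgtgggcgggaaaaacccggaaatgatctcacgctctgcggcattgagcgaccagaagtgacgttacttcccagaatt
Nop10: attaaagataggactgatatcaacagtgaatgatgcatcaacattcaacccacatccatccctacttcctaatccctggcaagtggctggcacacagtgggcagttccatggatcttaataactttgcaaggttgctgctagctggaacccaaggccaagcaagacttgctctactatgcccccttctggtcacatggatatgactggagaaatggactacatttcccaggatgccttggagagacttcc
Gar1: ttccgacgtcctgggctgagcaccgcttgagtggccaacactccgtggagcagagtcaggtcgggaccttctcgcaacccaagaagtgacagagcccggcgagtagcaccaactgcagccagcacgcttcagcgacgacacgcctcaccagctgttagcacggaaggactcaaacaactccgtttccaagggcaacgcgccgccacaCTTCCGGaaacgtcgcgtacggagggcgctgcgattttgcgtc
Nolc1: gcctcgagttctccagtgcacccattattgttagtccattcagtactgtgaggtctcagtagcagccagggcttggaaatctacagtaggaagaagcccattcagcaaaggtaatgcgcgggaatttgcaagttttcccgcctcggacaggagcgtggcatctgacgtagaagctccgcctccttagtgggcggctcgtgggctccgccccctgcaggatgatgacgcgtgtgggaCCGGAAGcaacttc
In windows of 300 bases, 250 before and 50 after the start, CCGGAAG on either strand was present in 3 of the 7 promoters, beginning 43 bases before the start in Gar1, 23 in Nhp2 and 14 in Nolc1. Of all 32851 promoters in the table, 8.86% held it, and of the 25277 with a GC content at least that of the poorest member promoter, 11.3%. CACGTG was present in 0 of the 7 promoters and in 7.15% of all. These motifs do not overlap each other, and a match describes letters only. In the GENCODE vM21 annotation of GRCm38, 3 members are themselves hosts of snoRNA genes: Nop56 on chromosome 2 contains 5 (Snord110 and Snord57 among them), Nop58 on chromosome 1 contains 4 (Snord70 and Snord11 among them) and Dkc1 on the X chromosome contains 1. Nop56, Nhp2 and Dkc1 also overlap a neighbour on the other strand (Idh3b, Rmnd5b and Mpp1), and the sources used here do not give whether strand was used in counting.

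As a check of the labels, the siRNA targets came first. Rpl14 in set 1 was at 60.2% and 27.1% of the siNT mean in the siRpl14 libraries and at 15.6% and 35.3% in siRpl14+siRpl11, so that replicate 1 of siRpl14 kept the most. Rpl11 stood at 34.9% and 15.2% in siRpl11 and at 13.2% and 33.4% in siRpl14+siRpl11. In set 2, Rpl14 stood at 35.1% of siNT in siRpl14+siDux and 34.6% in siRpl14. In set 3, it was 17.7% to 28.8% of the siNT mean in every library that received siRpl14, and Rpl11 was 23.7% in siRpl14+siRpl11 and 19.2% in siRpl11. Dux was under 1.5 FPKM (fragments scaled to transcript length and library size) in sets 1 and 2 and listed at 0 in all libraries of set 3 but replicate 2 of siRpl14, so its depletion could not be checked in set 3. In set 2, with 1 library each, it was 0.168 FPKM in siRpl14+siDux, against 1.495 FPKM in siRpl14, and 0.0546 FPKM in siDux, against 0.306 FPKM in siNT, which is the direction of the labels at very low levels. All 10 embryonic stem cell markers were above 0 in every library, while 9 of 12 fibroblast feeder markers in sets 1 and 2, and 8 of 12 in set 3, stayed under 1 FPKM in every library. Each library of sets 1 and 2 listed 30.1% to 32.1% of the genes at 0, and each library of set 3 listed 50.5% to 56.2%.

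FPKM are scaled to transcript length, so the members are set side by side within a table here. Their order differed between set 1 and set 3, as given below, so the order given next is that of set 1. In set 1, over all 8 libraries, the mean was 308 FPKM for Nop10, 287 for Nop56, 251 for Nhp2, 227 for Nop58, 223 for Fbl, 125 for Dkc1, 105 for Nolc1 and 45.3 for Gar1. Among 11535 genes with a mean of at least 1 FPKM, this put Nop10 at the 98.0th percentile, Nolc1 at the 93.4th and Gar1, the lowest, at the 83.2nd. The ranges over the 8 libraries of Nop10, Nop56, Nhp2, Nop58 and Fbl overlapped, and so did those of Dkc1 and Nolc1, whereas the highest value of Gar1 (61.5 FPKM) was below the lowest of every other member.

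With siRpl11 in set 1, 6 of the 8 members rose against siNT and none fell, while 16% of the 12129 genes tested were called higher and 28.4% lower (limma, adjusted p below 0.05). Those 6 were the 3 box C/D members (Nop58, Nop56 and Fbl) and 3 of the 4 H/ACA members (Gar1, Dkc1 and Nhp2). With siRpl14+siRpl11, 5 rose and none fell (16.6% of all genes called higher, 25% lower), the same genes without Nhp2. With siRpl14, 1 rose (Nop58) and 1 fell (Nop10), a share near the background of 18.1% called higher and 13.4% called lower. The median log2 fold change of the 8 members was 0.48 with siRpl14+siRpl11, 0.18 with siRpl14 and 0.52 with siRpl11, against -0.07, 0.03 and -0.11 over all genes tested. The libraries did not overlap siNT for 6 members higher and 1 lower with siRpl14+siRpl11 (33.7% and 43.3% of all genes), 6 higher and 1 lower with siRpl14 (38.2% and 32.9%) and 7 higher and 1 lower with siRpl11 (31.2% and 46.2%), the lower one being Nop10 each time. These 3 comparisons share the same 2 siNT libraries. The scaling of the libraries bears on the split of calls: after median-ratio rescaling, the all-gene median with siRpl11 was 0.04, and 3025 genes were called higher and 2408 lower, against 1938 and 3439 on the deposited values. With siRpl14+siRpl11 these counts were 2768 and 2357, against 2008 and 3035. Every member called with siRpl11 or siRpl14+siRpl11 was also called after that rescaling. Nothing in the labels ties replicates to separate cultures. The p-values therefore reflect the spread between these libraries alone, and this spread may be technical. In bulk RNA, fewer cells of a kind and less RNA per cell cannot be told apart.

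**Figure D1:**
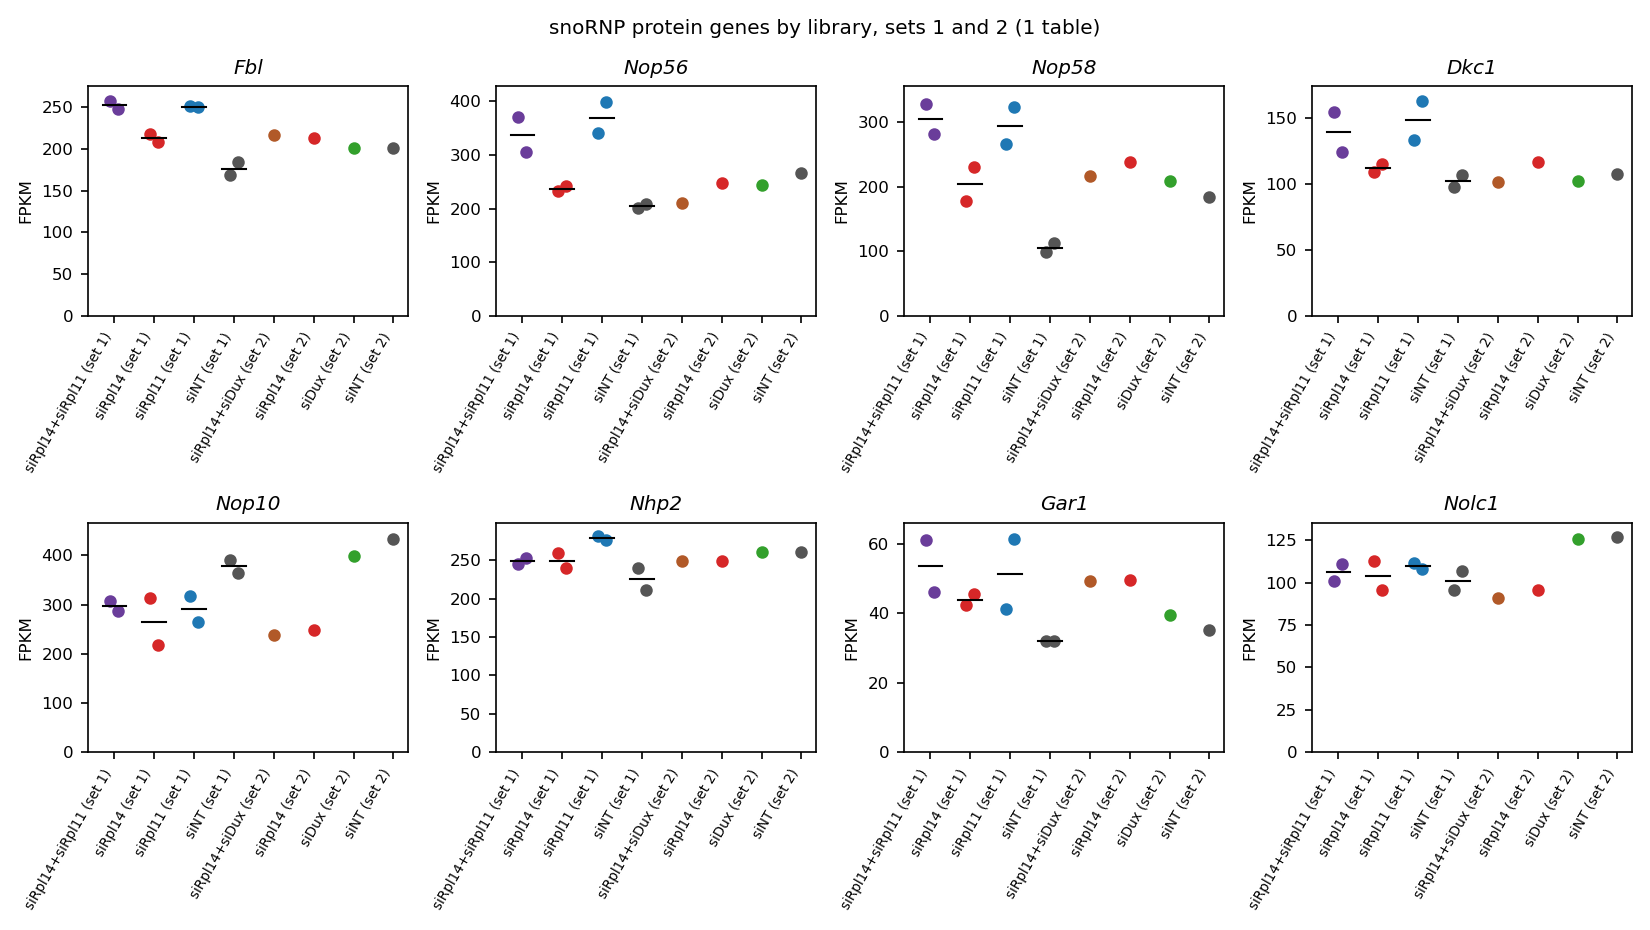
FPKM of the 8 members in each library of sets 1 and 2, 1 panel per gene, with knockdown groups left of siNT; points are libraries and bars are group means of set 1. Nop58 lies higher in all 6 knockdown libraries of set 1 (178 to 328 FPKM) than in siNT (98.2 and 113 FPKM), and Nop10 lies lower.

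Nop58, a scaffold protein of the box C/D particle, had the largest difference of any member from siNT in set 1. It measured 328 and 281 FPKM in siRpl14+siRpl11, 178 and 230.0 FPKM in siRpl14 and 266 and 323 FPKM in siRpl11, against 98.2 and 113 FPKM in siNT. All 6 knockdown libraries lay above both siNT libraries. Nop58 rose by 1.52 ± 0.16 on the log2(FPKM + 1) scale with siRpl14+siRpl11 (SE; limma, adjusted p = 0.00264), by 0.94 ± 0.16 with siRpl14 (adjusted p = 0.00676) and by 1.47 ± 0.16 with siRpl11 (adjusted p = 0.00226). In means, 304 ± 32.9, 204 ± 36.5 and 295 ± 40.5 FPKM in these groups (SD, n = 2 each) were 288%, 194% and 279% of the 105 ± 10.3 FPKM of siNT. The calls with siRpl11 and siRpl14+siRpl11 held with each library left out in turn. The siRpl14 call was lost without replicate 1 of siNT (0.84, limma, adjusted p = 0.0608).

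Nop56, the paralog of Nop58 in the same particle, measured 371 and 305 FPKM in siRpl14+siRpl11, 232 and 242 FPKM in siRpl14 and 340.4 and 398 FPKM in siRpl11, against 201.1 and 208 FPKM in siNT. The siRpl14 libraries stood between those of siNT and those of both groups given siRpl11, without overlap. Nop56 rose by 0.71 ± 0.13 with siRpl14+siRpl11 (limma, adjusted p = 0.00588) and by 0.85 ± 0.13 with siRpl11 (adjusted p = 0.00332), and both calls held with each library left out. With siRpl14 the log2 fold change was 0.21 ± 0.13 (limma, adjusted p = 0.216; 95% interval from -0.08 to 0.50).

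Fbl, the methyltransferase, measured 258 and 249 FPKM in siRpl14+siRpl11, 218 and 208 FPKM in siRpl14 and 251 and 250.2 FPKM in siRpl11, against 168 and 184 FPKM in siNT. As for Nop56, the siRpl14 libraries stood between those of siNT and those of both groups given siRpl11, without overlap. Fbl rose by 0.52 ± 0.09 with siRpl14+siRpl11 (limma, adjusted p = 0.00603) and by 0.51 ± 0.09 with siRpl11 (adjusted p = 0.0056). The change with siRpl14 was 0.27 ± 0.09 (limma, adjusted p = 0.0547). The siRpl11 call held with each library left out, and the siRpl14+siRpl11 call was lost without replicate 1 of that group (0.49, limma, adjusted p = 0.0514).

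Among the H/ACA proteins, Gar1 measured 61.3 and 46.0 FPKM in siRpl14+siRpl11, 42.4 and 45.5 FPKM in siRpl14 and 41.4 and 61.5 FPKM in siRpl11, against 32.1 and 32.1 FPKM in siNT. No knockdown library overlapped siNT, but replicates within siRpl14+siRpl11 and within siRpl11 lay far apart. Gar1 rose by 0.71 ± 0.20 with siRpl14+siRpl11 (limma, adjusted p = 0.0231) and by 0.64 ± 0.20 with siRpl11 (adjusted p = 0.0313, and 0.0544 with no filter), and its change with siRpl14 was 0.44 ± 0.20 (adjusted p = 0.116). Both calls were lost without either siNT library, and also without replicate 1 of siRpl14+siRpl11 (0.51, adjusted p = 0.146) or replicate 2 of siRpl11 (0.36, adjusted p = 0.191), each in its own contrast. Without either siNT library, the fold change stayed at 0.71 with siRpl14+siRpl11 (limma, adjusted p = 0.105 without replicate 1 and 0.0951 without replicate 2) and at 0.64 with siRpl11 (adjusted p = 0.125 and 0.115).

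Dkc1, the pseudouridine synthase, measured 154 and 124 FPKM in siRpl14+siRpl11, 108 and 115 FPKM in siRpl14 and 133 and 162 FPKM in siRpl11, against 97.7 and 106 FPKM in siNT. Each knockdown group lay above siNT, in siRpl14 by the smallest margin. Dkc1 rose by 0.44 ± 0.14 with siRpl14+siRpl11 (limma, adjusted p = 0.0378) and by 0.52 ± 0.14 with siRpl11 (adjusted p = 0.0191), and its change with siRpl14 was 0.13 ± 0.14 (adjusted p = 0.492). Like those of Gar1, both Dkc1 calls were lost without either siNT library. Without replicate 1 and without replicate 2 of siNT, the change was 0.38 and 0.50 with siRpl14+siRpl11 (limma, adjusted p = 0.175 and 0.0898), and 0.46 and 0.59 with siRpl11 (adjusted p = 0.109 and 0.0578). They were lost too without replicate 1 of siRpl14+siRpl11 (0.28, adjusted p = 0.245) and without replicate 2 of siRpl11 (0.38, adjusted p = 0.131).

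Nhp2, an RNA-binding subunit of the particle, varied least of the H/ACA proteins. It measured 245 and 253 FPKM in siRpl14+siRpl11, 259 and 239.5 FPKM in siRpl14 and 281 and 276 FPKM in siRpl11, against 239 and 211 FPKM in siNT. The groups did not overlap siNT, though the lowest siRpl14 library exceeded the highest siNT library only in the first decimal. Nhp2 rose by 0.31 ± 0.10 with siRpl11 (limma, adjusted p = 0.0382), while its change was 0.15 ± 0.10 with siRpl14+siRpl11 (adjusted p = 0.266) and 0.15 ± 0.10 with siRpl14 (adjusted p = 0.284). The siRpl11 call was lost without any of the siNT, siRpl11 or siRpl14+siRpl11 libraries (0.22 to 0.40, limma, adjusted p = 0.0521 to 0.165).

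Nop10, the smallest subunit of the H/ACA core, went the other way from the rest. It measured 307 and 287 FPKM in siRpl14+siRpl11, 314 and 217 FPKM in siRpl14 and 317 and 265 FPKM in siRpl11, against 391 and 364 FPKM in siNT. All 6 knockdown libraries lay below both siNT libraries. Nop10 fell by 0.53 ± 0.17 with siRpl14 (limma, adjusted p = 0.0499), and its log2 change was -0.35 ± 0.17 with siRpl14+siRpl11 (adjusted p = 0.138) and -0.38 ± 0.17 with siRpl11 (adjusted p = 0.106). The siRpl14 call sat at the threshold. It was lost without every library but replicate 1 of siRpl14, with log2 changes of -0.26 to -0.58 and limma adjusted p = 0.0512 to 0.263, the smallest change being that without replicate 2 of siRpl14. The 2 other Nop10 changes passed without either siRpl14 library (limma, adjusted p = 0.0464 and 0.0466 with siRpl14+siRpl11, 0.0332 and 0.0334 with siRpl11).

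Nolc1, the chaperone of both classes, was called in none of these contrasts. It measured 101 and 111 FPKM in siRpl14+siRpl11, 113 and 95.5 FPKM in siRpl14 and 112 and 108 FPKM in siRpl11, against 95.9 and 107 FPKM in siNT. The siRpl11 libraries alone did not overlap siNT. Its log2 fold changes were 0.07, 0.04 and 0.12 (SE 0.12 each; limma, adjusted p = 0.66, 0.822 and 0.434).

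**Figure D2:**
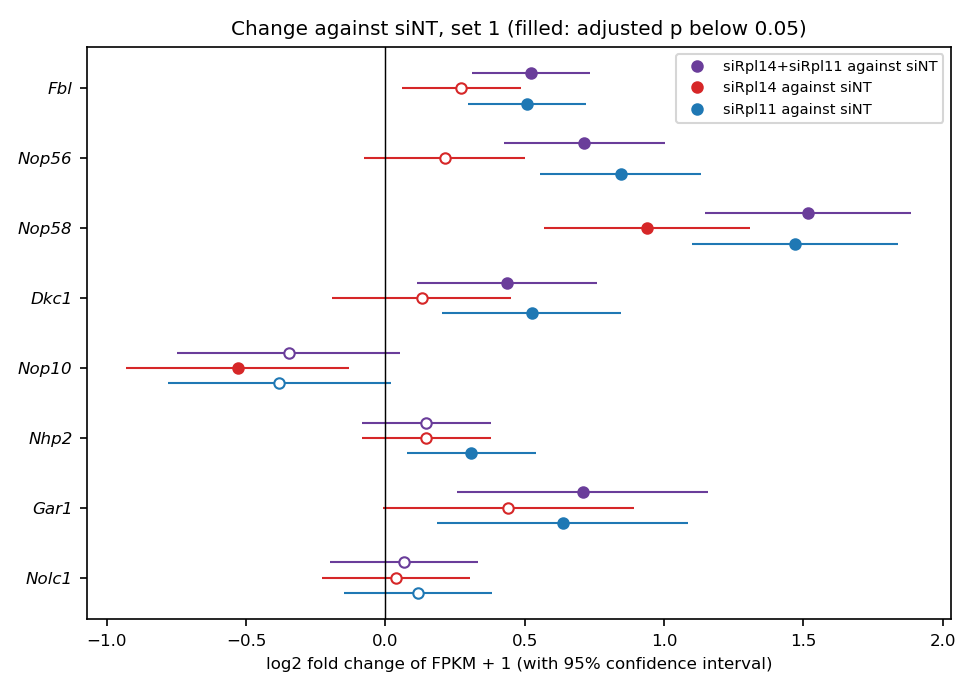
Log2 fold changes of the 8 members against siNT in set 1 for siRpl14+siRpl11, siRpl14 and siRpl11 on the log2(FPKM + 1) scale, with 95% intervals from limma; filled points pass an adjusted p of 0.05. Nop58 is rightmost in all 3 contrasts (1.52, 0.94 and 1.47) and Nop10 is the member below 0 in each.

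The knockdowns were also set against one another. Against siRpl11, siRpl14+siRpl11 gave 0 called members and 0 called genes of 12129 (0%), with 0 members and 387 genes, 3.19%, at an unadjusted limma p below 0.05. Nop56 had a log2 fold change of -0.13 and Nop58 one of 0.05 in that contrast. Against siRpl14, siRpl14+siRpl11 again gave 0 called members (7.24% of all genes called), with 3 members at an unadjusted p below 0.05 (22.7% of all genes). Nop56 was 0.50 ± 0.13 higher (limma, adjusted p = 0.0522), Nop58 0.58 ± 0.16 higher (adjusted p = 0.0713) and Fbl 0.25 ± 0.09 higher (adjusted p = 0.156). After median-ratio rescaling, Nop56 (0.64, adjusted p = 0.0406) and Nop58 (0.71, adjusted p = 0.0484) passed.

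Between the single knockdowns, Nop56 fell by 0.63 ± 0.13 in siRpl14 against siRpl11 (limma, adjusted p = 0.0164), the only member called, where 1.45% of all genes were called lower and 12% higher. Nop58 was at -0.53 ± 0.16 (limma, adjusted p = 0.0661), Dkc1 at -0.39 ± 0.14 (adjusted p = 0.103) and Fbl at -0.23 ± 0.09 (adjusted p = 0.133). Fbl, Nop56, Nop58, Dkc1 and Nhp2 had both siRpl14 libraries below both siRpl11 libraries, as had 15.1% of all genes. The Nop56 call was lost without replicate 2 of siRpl11 (-0.52, adjusted p = 0.12), replicate 1 of siRpl14 (-0.60, adjusted p = 0.0628) or replicate 2 of siRpl14 (-0.66, adjusted p = 0.0736). After median-ratio rescaling, 4 members were called lower (Nop56, Nop58 at -0.72, Dkc1 at -0.59 and Fbl at -0.43), with 831 genes called higher and 690 lower against 1452 and 176 on the deposited values. The 2 groups also differed in how much of the target was left, as given above, and the part of this in these differences was not tested. The interaction, the change in siRpl14+siRpl11 beyond the sum of the changes in siRpl14 and siRpl11, gave 0 called members (4.49% of all genes called) and 1 at an unadjusted p below 0.05 (29.1% of all genes): Nop58 at -0.89 ± 0.23 (limma, adjusted p = 0.0628). Without replicate 1 of siRpl14, Nop58 (-1.07, adjusted p = 0.0354) and Nop10 (0.83, adjusted p = 0.0401) passed.

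The mRNAs for proteins of the same particle were also set against each other, as ratios of FPKM with no test. Such ratios do not describe the make-up of the particles. Per length, Nop58 stood at 0.884 and 0.921 of Nop56 in siRpl14+siRpl11, 0.767 and 0.949 in siRpl14 and 0.781 and 0.811 in siRpl11, against 0.488 and 0.542 in siNT. All 6 knockdown libraries of set 1 exceeded its siNT libraries. In set 2 the ratio was 1.02 in siRpl14+siDux, 0.961 in siRpl14 and 0.853 in siDux, against 0.688 in siNT. That siDux value lay above both siRpl11 libraries of set 1. In set 3 the ratio was 2.09 and 2.38 in siNT, 2.31 and 2.06 in siDux and 2.56 and 4.10 in siRpl14. It was 3.90 and 4.23 in siRpl14+siDux, and 3.60 and 2.64 in the single siRpl14+siRpl11 and siRpl11 libraries. In set 1, Nop10 made up 51.4% and 51.0% of the summed FPKM of the 4 H/ACA genes in siNT. Its share was 40.0% and 40.4% in siRpl14+siRpl11, 43.4% and 35.2% in siRpl14 and 41.0% and 34.7% in siRpl11. Thus Nop10 was about as abundant as the other 3 H/ACA transcripts together in siNT and less abundant in every knockdown library of set 1. In set 3 its share was 4.80% and 13.7% in siNT and 3.06% to 12.3% in the knockdown libraries.

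**Figure D3:**
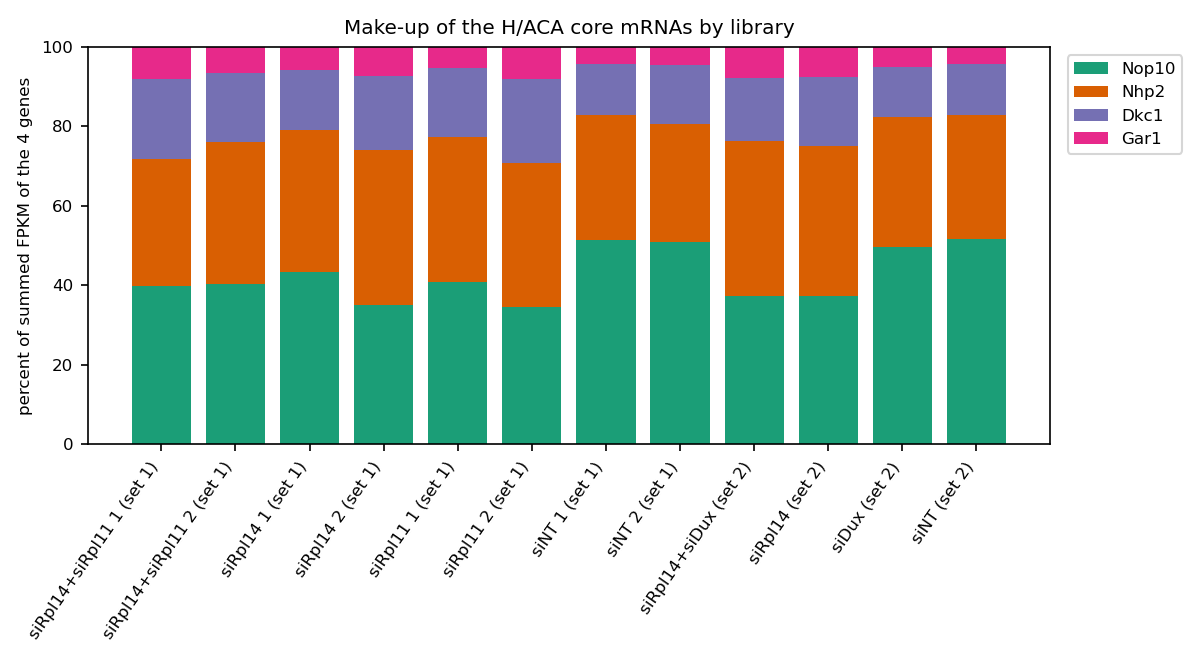
Share of Dkc1, Nop10, Nhp2 and Gar1 in their summed FPKM in each library of sets 1 and 2, as stacked bars in percent with knockdown groups left of siNT. The Nop10 share is 34.7% to 43.4% in libraries given siRpl14 or siRpl11 and 49.7% to 51.8% in those given siDux or siNT alone.

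Set 2 gives 1 library per condition from the same table, so its differences have no replicate check. Nop10 again separated the libraries, at 238 FPKM in siRpl14+siDux, 249 FPKM in siRpl14 and 399 FPKM in siDux, against 434 FPKM in siNT. Its log2 difference from siNT was -0.86 in siRpl14+siDux and -0.80 in siRpl14, and it was the only member past a 1.5-fold difference: 13.2% and 13.3% of all genes were that much lower, and 16.4% and 15.3% that much higher. Nop58 differed less than in set 1, at 216 FPKM in siRpl14+siDux, 238 FPKM in siRpl14 and 209 FPKM in siDux, against 184 FPKM in siNT, a level above both siNT libraries of set 1. That siNT level was also above replicate 1 of siRpl14 in set 1 (178 FPKM). The log2 difference of Nop58 with siRpl14 was 0.37. Gar1 was at 49.5, 49.7 and 39.6 FPKM, against 35.1 FPKM in siNT, and its difference with siRpl14 was 0.49, close to the 0.44 of set 1. Nolc1 was at 90.9, 95.8 and 126 FPKM, against 127 FPKM in siNT, a difference of -0.41 with siRpl14. Nop56 was at 211, 248 and 244 FPKM, against 267 FPKM in siNT, a difference of -0.11 with siRpl14. That siNT level was above both siRpl14 libraries of set 1 (232 and 242 FPKM). For Fbl, Dkc1 and Nhp2 in siRpl14 and siRpl14+siDux, the widest log2 difference from siNT was 0.11, that of Dkc1 in siRpl14. With siDux alone, the widest difference was the 0.18 of Nop58, and none was 1.5-fold, where 0.546% and 0.631% of all genes were that much higher and lower. Between siRpl14+siDux and siRpl14, no member was 1.5-fold apart (1.53% of all genes higher, 1.37% lower), and the widest difference was that of Nop56, -0.23. When the siNT and siRpl14 libraries of set 2 joined those of set 1 in a fit with a term for the set, Gar1 passed (0.46, limma, adjusted p = 0.031), where that fit called 5860 of 12288 genes, against 3822 of 12129 in set 1 alone.

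In set 3, limma called 0 of the 8 members in every contrast. The genes called in all were 0.66% for siRpl14 against siNT, 0.00758% for siDux, 1.02% for siRpl14+siDux, 0.0152% for siRpl14+siDux against siRpl14 and 0.5% for siRpl14+siDux against siDux. At an unadjusted p below 0.05 there were 1, 0, 2, 0 and 1 members, against 12.4%, 5%, 14.8%, 6.78% and 12.9% of all genes. Nop58 measured 234 and 250.4 FPKM in siRpl14+siDux, 265 and 279 FPKM in siRpl14 and 230.2 and 211 FPKM in siDux, against 179.8 and 174 FPKM in siNT. None of these groups overlapped siNT. The log2 change with siRpl14 was 0.61 ± 0.15 (95% interval from 0.27 to 0.95; limma, unadjusted p = 0.00326, adjusted p = 0.145), with siRpl14+siDux 0.45 ± 0.15 (adjusted p = 0.22) and with siDux 0.32 ± 0.15 (adjusted p = 0.988). Gar1 measured 16.8 and 15.6 FPKM in siRpl14+siDux, 15.2 and 15.9 FPKM in siRpl14 and 13.8 and 11.1 FPKM in siDux, against 10.3 and 7.55 FPKM in siNT. Here too no group overlapped siNT, with log2 changes of 0.81 ± 0.32, 0.75 ± 0.32 and 0.45 ± 0.32 (limma, adjusted p = 0.301, 0.405 and 0.988). In all, the siRpl14 libraries lay wholly above siNT for these 2 members and wholly below for 1, Nolc1, as they did for 18.5% and 22.4% of all genes. Lack of overlap in the other groups was not particular to Nop58 and Gar1. With siRpl14+siDux, Fbl, Nop58, Nhp2 and Gar1 lay wholly above siNT, and Nop56, Dkc1, Nop10 and Nolc1 wholly below. With siDux, Nop56, Nop58 and Gar1 lay wholly above siNT. The share of all genes without overlap is not given here for siRpl14+siDux and siDux.

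Nop10 gave no clear picture in set 3. It measured 6.28 and 7.92 FPKM in siRpl14+siDux, 11.7 and 5.38 FPKM in siRpl14 and 7.91 and 19.0 FPKM in siDux, against 9.76 and 25.6 FPKM in siNT. Replicates of siNT alone differed more than the group means did, and the log2 change with siRpl14 was -0.91 ± 0.61 (95% interval from -2.32 to 0.50; limma, adjusted p = 0.641). Nop56 measured 59.9 and 59.1 FPKM in siRpl14+siDux, 103 and 68.0 FPKM in siRpl14 and 99.8 and 103 FPKM in siDux, against 85.8 and 73.2 FPKM in siNT. Its siRpl14+siDux libraries were the lowest, and the log2 change from siDux was -0.76 ± 0.24 (limma, adjusted p = 0.252). The other members ranged over all 10 libraries from 58.2 to 78.4 FPKM for Fbl, from 64.3 to 112 FPKM for Dkc1, from 54.8 to 118 FPKM for Nhp2 and from 28.4 to 55.3 FPKM for Nolc1. Their limma log2 changes with siRpl14 lay between -0.29 and 0.16.

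The single libraries of siRpl14+siRpl11 and siRpl11 in set 3 are described without a test. Nop58 was at 320.2 FPKM in siRpl14+siRpl11 and 359 FPKM in siRpl11, above both siNT libraries and every other library of the set. Its log2 difference from the siNT mean was 0.85 and 1.02. With siRpl11, 4 members were at least 1.5-fold higher than siNT (Nop58, Nop10 at 0.88, Nop56 at 0.77 and Gar1 at 0.68), where 19.9% of all genes were, and none was that much lower, where 35.8% of all genes were. With siRpl14+siRpl11, 2 members were (Gar1 at 1.28 and Nop58), where 20.7% of all genes were, and none was that much lower (35.5%). Nop10 was at 16.5 FPKM in siRpl14+siRpl11 and at 30.2 FPKM in siRpl11, the highest value of the set, so its direction with siRpl11 differed from that in set 1.

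**Figure D4:**
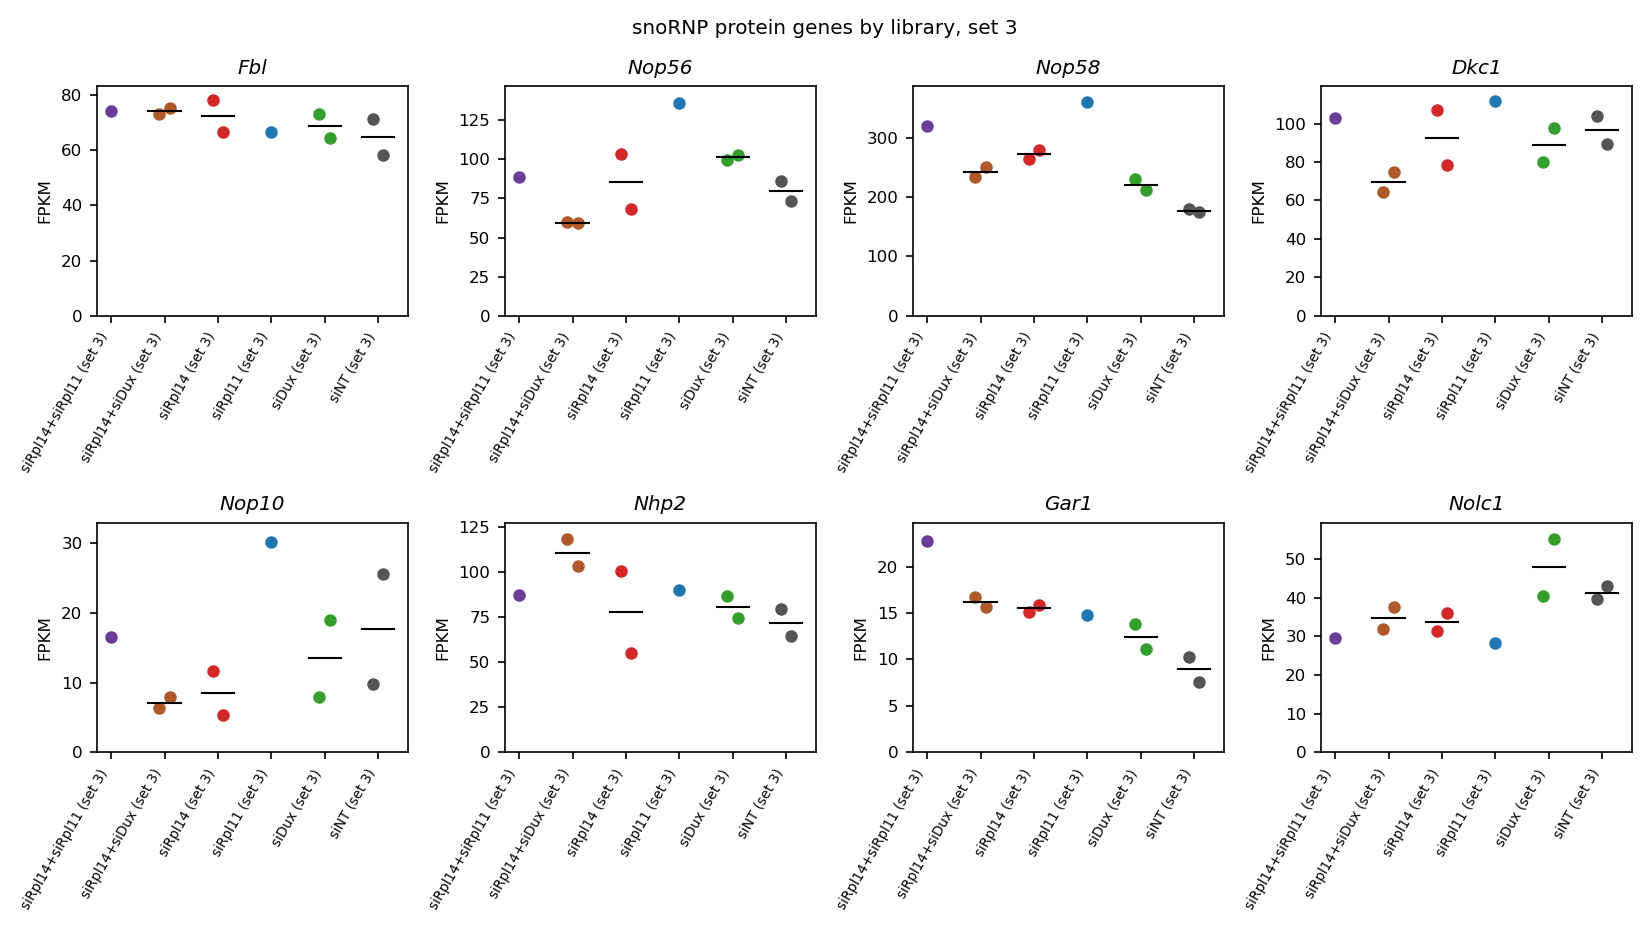
FPKM of the 8 members in each of the 10 libraries of set 3, 1 panel per gene, with knockdown groups left of siNT; points are libraries and bars are means of the groups of 2. Nop58 is lowest in siNT (179.8 and 174 FPKM) and highest in the single siRpl11 library (359 FPKM), while Nop10 spans 5.38 to 30.2 FPKM.

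Levels differed between the tables, which were compared only in this description. The siNT mean of set 3 was 4.68% of that of set 1 for Nop10, 27.8% for Gar1, 31.9% for Nhp2, 36.8% for Fbl, 38.9% for Nop56, 40.8% for Nolc1, 94.7% for Dkc1 and 168% for Nop58. In siNT, Nop58 was thus the most abundant member in set 3, at a mean of 177 FPKM, and Gar1 (8.92 FPKM) and Nop10 (17.7 FPKM) the least, whereas Nop10 led in set 1 (378 FPKM). Over 1630 genes with at least 50 FPKM in siNT of set 1, the same percentage moved with transcript length: its median was 22.9% for the 165 genes up to 800 bases, 35.2% for the 439 genes from 1200 to 2000 bases and 49.2% for the 224 genes over 4000 bases. The transcript of Nop10 has 1109 bases and that of Nop58 has 1713 in GENCODE vM21. For the 217 genes from 800 to 1200 bases, the median was 31.0% and the 10th percentile 10.8%, above the 4.68% of Nop10. For the genes from 1200 to 2000 bases, the 90th percentile was 104%, below the 168% of Nop58. The part of length in the members' levels was not tested.

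Genes that act with the snoRNP core were examined as lists. Of 12 genes for snoRNP assembly (chaperones, zinc finger HIT proteins, cap methylation and transport), 11, all but Nhp2l1, were matched and tested in set 1. Of these, 6 rose with siRpl14+siRpl11, 5 with siRpl14 and 6 with siRpl11, and none fell. Over all genes, 16.6%, 18.1% and 16% were called higher and 25%, 13.4% and 28.4% lower in these contrasts. The median log2 fold changes of the 11 were 0.42, 0.30 and 0.52, against -0.07, 0.03 and -0.11 over all genes tested. This rise was not seen in set 3. There the medians of the 11 were -0.13 with siRpl14, -0.15 with siRpl14+siDux and -0.03 with siDux, against -0.05, -0.07 and 0 over all genes tested. In set 1, Znhit6, a box C/D assembly factor, averaged 24.1 ± 3.04 FPKM in siRpl14 and 26.3 ± 1.39 FPKM in siRpl11, against 13.1 ± 1.37 FPKM in siNT (SD, n = 2 each). It rose by 0.83 with siRpl14 (limma, adjusted p = 0.00541) and by 0.95 with siRpl11 (adjusted p = 0.00296). Pih1d1, a subunit of the R2TP chaperone complex, averaged 32.5 ± 1.69 FPKM in siRpl14, against 18.6 ± 1.78 FPKM in siNT, a rise of 0.77 (limma, adjusted p = 0.00708). Phax, which carries snoRNA precursors, rose by 0.49 with siRpl14 (limma, adjusted p = 0.0173) and by 0.55 with siRpl11 (adjusted p = 0.00823). Znhit3, another HIT protein of box C/D assembly, rose by 0.40 with siRpl14 (limma, adjusted p = 0.0185) and by 0.52 with siRpl11 (adjusted p = 0.0056). Tgs1, which hypermethylates the cap of snoRNAs, averaged 19.8 ± 1.36 FPKM in siRpl11, against 12.3 ± 1.93 FPKM in siNT, a rise of 0.66 (limma, adjusted p = 0.00824). Replicate 1 of siNT decided much of the siRpl14 count: without it, none of the 11 was called with siRpl14 (Znhit6 0.73, limma, adjusted p = 0.0506), 2 with siRpl14+siRpl11 and 3 with siRpl11. Without replicate 2 of siNT, 3 were called with siRpl14 and 4 with siRpl14+siRpl11. Without replicate 2 of siRpl14, 1 was called with siRpl14, without replicate 2 of siRpl11, 2 with siRpl11, and without replicate 1 of siRpl14+siRpl11, 1 in that group.

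Of 7 genes of the nucleolus, Cajal body and telomerase, 3 rose and 1 fell with siRpl14+siRpl11, 2 rose with siRpl14, and 3 rose and 1 fell with siRpl11, where 16.6%, 18.1% and 16% of all genes were called higher and 25%, 13.4% and 28.4% lower. The median log2 fold changes were 0.19, 0.01 and 0.29. None of the 3 rises with siRpl14+siRpl11 was called without replicate 1 of siNT or of siRpl14+siRpl11, and 1 rise with siRpl14 without either siNT library or replicate 2 of siRpl14. Npm1, an abundant nucleolar protein, averaged 2454 ± 49.9 FPKM in siRpl11, against 1359 ± 86.5 FPKM in siNT, a rise of 0.85 (limma, adjusted p = 0.00291). Wrap53, which brings H/ACA RNAs to Cajal bodies, averaged 34.3 ± 7.95 FPKM in siRpl14 and 16.8 ± 0.937 FPKM in siRpl11, against 11.6 ± 0.719 FPKM in siNT. It rose by 1.46 with siRpl14 (limma, adjusted p = 0.00165) and by 0.50 with siRpl11 (adjusted p = 0.0345), and the siRpl11 call was lost without either siNT or either siRpl11 library (0.44 to 0.55, adjusted p = 0.0659 to 0.157) and with no filter (adjusted p = 0.0551). Wrap53 overlaps Trp53 on the other strand, so reads of these genes may not have been told apart. Smn1, of the survival motor neuron complex, rose by 1.06 with siRpl11 (limma, adjusted p = 0.00531) and by 0.59 with siRpl14 (adjusted p = 0.0468), the siRpl14 call being lost without either siNT library or replicate 2 of siRpl14 (0.41 to 0.67, adjusted p = 0.111 to 0.249). That call was lost too with no filter, quantile normalization, median-ratio rescaling, the replicate number as a block or plain moderation (0.53 to 0.59, limma, adjusted p = 0.0518 to 0.0731). Tert, the telomerase reverse transcriptase, averaged 4.29 ± 0.384 FPKM in siRpl11, against 8.31 ± 0.334 FPKM in siNT, and fell by 0.82 (limma, adjusted p = 0.00362).

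Of 19 non-coding snoRNA host genes, 18 were in the table and 16 passed the filter. Of these, 3 rose and 4 fell with siRpl14+siRpl11, none rose and 6 fell with siRpl14, and 2 rose and 4 fell with siRpl11. Set against the 25% and 28.4% of all genes called lower with siRpl14+siRpl11 and siRpl11, the 4 falls of 16 were near the background, while 13.4% were called lower with siRpl14. Those called higher were 16.6%, 18.1% and 16% of all genes. After median-ratio rescaling the split turned to 4 higher and 2 lower with siRpl14+siRpl11 and to 5 higher and 2 lower with siRpl11. With single libraries left out, 2 to 6 fell with siRpl14+siRpl11 (2 without replicate 1 of siNT or of siRpl14+siRpl11), 2 to 8 with siRpl14 (2 without its replicate 2, 3 without replicate 1 of siNT) and 2 to 5 with siRpl11 (2 without replicate 1 of siNT or of siRpl11). Snhg11 averaged 4.28 ± 0.894 FPKM in siRpl14 and 3.98 ± 0.354 FPKM in siRpl11, against 15.0 ± 0.201 FPKM in siNT, and fell by 1.61 and 1.69 (limma, adjusted p = 0.00109 and 0.0018). Snhg20 averaged 15.8 ± 0.330 FPKM in siRpl14 and 14.4 ± 5.00 FPKM in siRpl11, against 47.5 ± 4.30 FPKM in siNT, and fell by 1.53 and 1.69 (limma, adjusted p = 0.00334 and 0.00248). Both were also low in the siRpl14 library of set 2, at 2.66 and 11.7 FPKM, against 13.4 and 35.7 FPKM in siNT. Gas5 averaged 26.2 ± 2.28 FPKM in siRpl14, against 44.1 ± 8.64 FPKM in siNT, and fell by 0.72 (limma, adjusted p = 0.0111). That call was lost without replicate 1 of siNT (-0.53, adjusted p = 0.0686) and without replicate 2 of siRpl14 (-0.64, adjusted p = 0.0745). Snhg4 fell by 0.87 with siRpl14 (limma, adjusted p = 0.0189), lost without replicate 2 of siNT or either siRpl14 library (-0.63 to -0.96, adjusted p = 0.0579 to 0.107). With siRpl11, Snhg3 averaged 150 ± 37.3 FPKM, against 73.3 ± 0.262 FPKM in siNT, and rose by 1.00 (limma, adjusted p = 0.00557), and Snhg1 averaged 417 ± 93.7 FPKM, against 195 ± 17.9 FPKM, and rose by 1.08 (adjusted p = 0.00695; 0.98 and adjusted p = 0.0571 without replicate 1 of siNT). In set 3, limma called none of the tested genes of these 3 lists except Snhg6, a host gene named here after its values were seen, which is listed at 0 in both siRpl14+siDux libraries and was called lower there against siNT and against siDux. In its single siRpl11 library, described without a test, Npm1 was at 98.8% and Snhg1 at 88.1% of the siNT mean, so neither rise recurred. Znhit6, Znhit3, Phax, Tgs1 and Smn1 were at 140%, 224%, 141%, 131% and 179% of it. Snhg3 and Wrap53 were at 13.3 and 4.85 FPKM, against 0 in siNT.

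**Figure D5:**
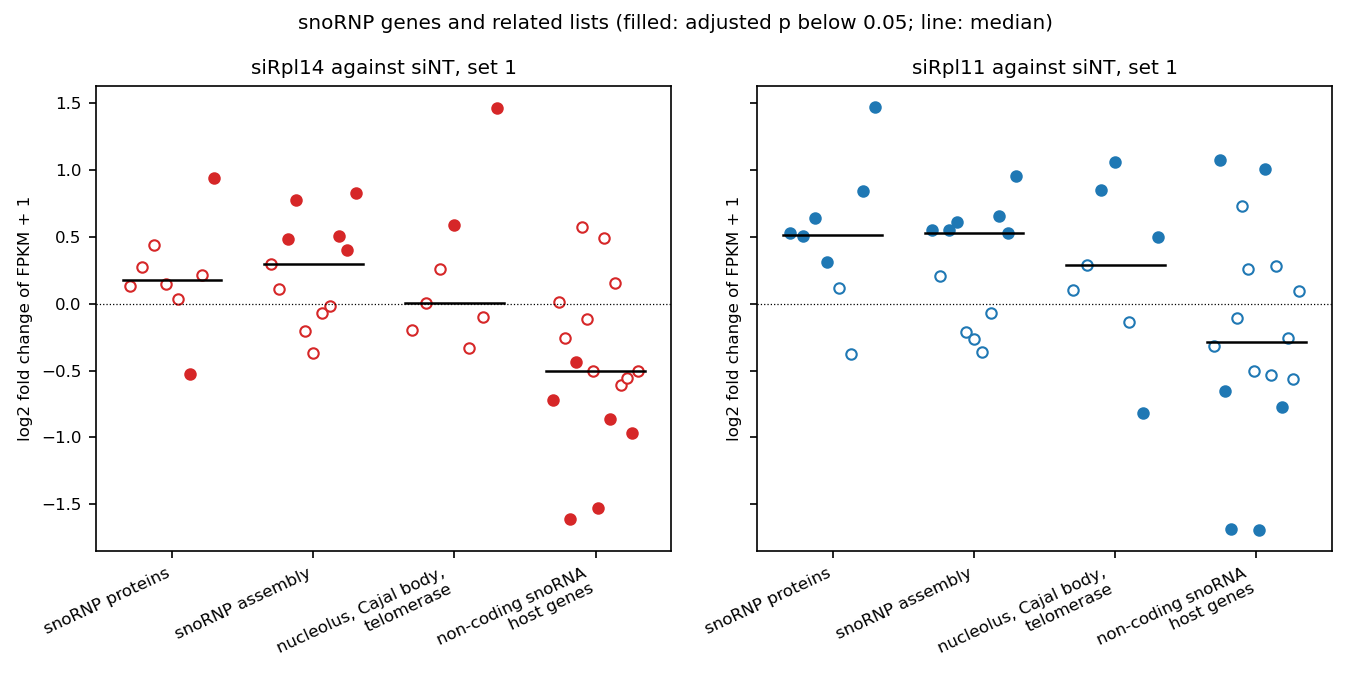
Log2 fold changes of every tested gene of the members and of the 3 further lists with siRpl14 and with siRpl11 against siNT in set 1, on the log2(FPKM + 1) scale, with a line at the median of each list. The assembly genes lie mostly above 0 (medians 0.30 with siRpl14 and 0.52 with siRpl11), and the non-coding host genes mostly below (-0.50 and -0.29).

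Stem cell markers moved in the same libraries. Of 10, 2 rose and 7 fell with siRpl14+siRpl11, 1 rose and 4 fell with siRpl14, and 2 rose and 4 fell with siRpl11, where 16.6%, 18.1% and 16% of all genes were called higher and 25%, 13.4% and 28.4% lower. The summed feeder markers were 6.30 to 7.83 FPKM in siRpl14+siRpl11, 7.04 to 11.2 FPKM in siRpl14 and 6.42 to 7.38 FPKM in siRpl11, against 19.2 to 19.4 FPKM in siNT, with 4 of 12 at 0 in every library. Thy1 made up most of these sums, with means of 5.13, 6.27 and 5.23 FPKM in these groups, against 15.1 FPKM in siNT. Pdgfrb was also lower in each group. Fbn1 was higher in each, at 1.08, 1.21 and 0.954 FPKM, against 0.662 FPKM in siNT. The other 9 feeder markers stayed under 1 FPKM, so the sums do not describe the markers as a class. The part of the marker shifts in the members' changes was not tested.

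Finally, the genes whose log2 values followed each member most closely over the 8 libraries of set 1 were listed, out of 8209 with a mean of at least 5 FPKM, as a description without p. The 8 points share 4 conditions, so any gene with the same group means scores high. Nop58 was followed most closely by Abce1, a ribosome recycling factor (r = 0.998), Trip6 (0.997) and Mybbp1a, a nucleolar protein (0.996), and 928 genes exceeded 0.9. Over the 10 libraries of set 3 the same 3 genes had r = 0.381, 0.21 and 0.823. Nop56 was followed by Exosc10, a catalytic subunit of the nuclear RNA exosome (0.994, and 0.0733 in set 3), and Fbl by Qser1 (0.996, and 0.491). Dkc1 was followed by Mettl16, an RNA methyltransferase (0.996, and -0.00866), and Gar1 by Cdkn2aip (0.995, and -0.221). Nop10 was followed by Stip1, a cochaperone (0.983, and 0.434). Nhp2 and Nolc1 had few close neighbours, with 13 and 6 genes over 0.9, led by Mrpl18, a mitochondrial ribosomal protein (0.962, and 0.392), and Skp2, an F-box protein (0.93, and -0.34).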

How the data were processed

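Polyadenylated RNA of E14 cells was sequenced after Trizol extraction, DNase treatment and a stranded library kit, per the labels' protocols. The authors deposited FPKM in 2 tables, aligned with STAR and made with Cuffnorm on mm9, per the submitters' processing notes; the sources used here give no versions, annotation or strand setting. Counts were not used here, so depth is unknown. Sets 1 and 3 were each fitted with limma 3.58.1 (R 4.3.3, statmod 1.5.0; trended, robust moderation) on log2(FPKM + 1), a scale that understates changes of low genes. The fit kept genes that reached 1 FPKM in at least 2 libraries, with Benjamini-Hochberg adjustment over all of them and a threshold of 0.05. There were 7 contrasts in set 1 and 5 in set 3, where the 2 single libraries stayed out of the fit. Single libraries were described with a 1.5-fold rule. The fit was also run on simulated data with independent noise, which says nothing of calls that rest on a single library. Members and lists were chosen with earlier results of these data known. Named are all members and, per list and single knockdown of set 1, up to 4 called genes with the smallest adjusted p.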

Additional observations from a re-analysis of the deposited data

Results flagged for a closer look

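Among the genes that act with the snoRNP core, 4 had a change in siRpl14+siRpl11 of set 1 that differed from the sum of the changes in siRpl14 and siRpl11, by the interaction term of the limma fit. The host gene Snhg11 had an interaction of 1.89 ± 0.21 (SE, log2 scale; limma, adjusted p = 0.0144), with 5.03 ± 0.123 FPKM in siRpl14+siRpl11, 4.28 ± 0.894 FPKM in siRpl14 and 3.98 ± 0.354 FPKM in siRpl11, against 15.0 ± 0.201 FPKM in siNT (SD, n = 2 each). The host gene Snhg20 had one of 1.62 ± 0.29 (adjusted p = 0.0317), with 15.0 ± 1.87, 15.8 ± 0.330 and 14.4 ± 5.00 FPKM in these knockdowns, against 47.5 ± 4.30 FPKM in siNT. In both, each single knockdown and the combined one lay at a like level. Wrap53 had an interaction of -1.30 ± 0.22 (adjusted p = 0.0285), with 19.0 ± 0.955 FPKM in siRpl14+siRpl11, 34.3 ± 7.95 FPKM in siRpl14 and 16.8 ± 0.937 FPKM in siRpl11, against 11.6 ± 0.719 FPKM in siNT. Znhit6 had one of -0.85 ± 0.19 (adjusted p = 0.0467), with 25.8 ± 2.31, 24.1 ± 3.04 and 26.3 ± 1.39 FPKM, against 13.1 ± 1.37 FPKM in siNT. With the replicate number as a block, 3 of these calls were lost: Snhg20 (limma, adjusted p = 0.0569), Wrap53 (adjusted p = 0.0522) and Znhit6 (adjusted p = 0.0711). Snhg20 lost it too with no filter (adjusted p = 0.0526), and Znhit6 with a pseudocount of 0.1, no filter, a filter of 5 FPKM or plain moderation (-0.85 to -0.90, adjusted p = 0.0502 to 0.0688). Each of the 4 calls was also lost in some fits with a library left out. Snhg11 lost it without either siNT library or replicate 2 of siRpl14+siRpl11 (1.88 to 1.91, adjusted p = 0.0535 to 0.101). Snhg20 lost it without either siNT library, replicate 1 of siRpl11, replicate 2 of siRpl14 or either siRpl14+siRpl11 library (1.28 to 1.74, adjusted p = 0.0553 to 0.118). Wrap53 lost it without either siNT or siRpl11 library, replicate 2 of siRpl14 or replicate 2 of siRpl14+siRpl11 (-1.07 to -1.36, adjusted p = 0.0613 to 0.122). Znhit6 lost it without every library but replicate 1 of siRpl14 (-0.73 to -0.95, adjusted p = 0.060 to 0.157). No member of the snoRNP core was called in the interaction.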

How the results depend on the processing

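Over 96 member results, 1544 log2 fold changes were recomputed: 1480 kept their side of the threshold and their direction where called, 42 lost a call, 22 gained one and none reversed a call, while 45 values that were called under neither setting changed sign. With siRpl14 against siNT in set 1, 2 members were called. This was 1 with a pseudocount of 0.1, with no filter, with a filter of 5 FPKM, with median-ratio rescaling and with plain moderation, because Nop10 no longer passed (limma, adjusted p = 0.051 to 0.0758), 3 with quantile normalization, where Fbl passed (0.27, adjusted p = 0.0494) and Nop10 stayed called, and 0 to 2 with single libraries left out. With siRpl11 against siNT, 6 were called, 4 with no filter (Gar1 and Nhp2 lost, limma, adjusted p = 0.0544 and 0.0508), 5 with quantile normalization and 5 with plain moderation (Nhp2 lost, adjusted p = 0.0631 and 0.0582), and 3 to 7 with libraries left out. With siRpl14+siRpl11 against siNT, 5 were called, 4 with no filter and 4 with plain moderation (Dkc1 lost, limma, adjusted p = 0.060 and 0.0511), and 2 to 6 with libraries left out. Against siRpl14, siRpl14+siRpl11 gave 0 and, after median-ratio rescaling, 2. Between siRpl14 and siRpl11 there was 1, after median-ratio rescaling 4, and with libraries left out 0 to 1. The interaction gave 0, and 0 to 2 with libraries left out. In set 3 and for siRpl14+siRpl11 against siRpl11, no setting called a member. Counts over all genes moved by more than 1.5 times: 752 to 6067 around 3822 for siRpl14, 1778 to 7126 around 5377 for siRpl11 and 1307 to 6877 around 5043 for siRpl14+siRpl11, each against siNT, 379 to 3470 around 1628 for siRpl14 against siRpl11, 79 to 2288 around 878 for siRpl14+siRpl11 against siRpl14, and 2 to 3629 around 544 for the interaction. In set 3 they were 8 to 106 around 87 for siRpl14 and 26 to 177 around 135 for siRpl14+siDux against siNT. Where a setting changed a call, the cause was not tested unless given here.

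Whether the replicate numbers pair the samples of set 1 is not settled: deviations of same-numbered libraries from their group means correlated at 0.466, 0.211 and 0.169 among siRpl14, siRpl11 and siNT, but at -0.222 to -0.451 with siRpl14+siRpl11, the sign that crossed numbers in that group would give. In set 3 they correlated at 0.038 to 0.061. The target left in set 1 also differed by replicate number. Replicate 1 kept more than replicate 2 in siRpl14 (Rpl14 60.2% and 27.1% of the siNT mean) and siRpl11 (Rpl11 34.9% and 15.2%). It kept less in siRpl14+siRpl11 (Rpl14 15.6% and 35.3%, Rpl11 13.2% and 33.4%). The part of crossed numbers or of target left in these correlations was not tested. With the replicate number as a block, 2, 6 and 4 members were called with siRpl14, siRpl11 and siRpl14+siRpl11 against siNT (Dkc1 lost with siRpl14+siRpl11, limma, adjusted p = 0.0556), and over all genes 3193, 4761 and 4451 were called in these contrasts, 539 for siRpl14+siRpl11 against siRpl14, 0 against siRpl11, 1090 between siRpl14 and siRpl11 and 27 in the interaction. In set 3 the block called 81 genes with siRpl14 and 158 with siRpl14+siDux against siNT, and no member. A block with the numbers of siRpl14+siRpl11 crossed, chosen after seeing the data, called 4 members with siRpl14 against siNT (6067 of all 12129 genes), 7 with siRpl11 (7126), 5 with siRpl14+siRpl11 (6877), 3 with siRpl14+siRpl11 against siRpl14 (2288), 3 between siRpl14 and siRpl11 (3470) and 1 in the interaction (3629).

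FPKM without counts give no depth, so no counting error stands behind any value. With 2 libraries per group, a single library can decide a call.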
